A study of Mus musculus with 2 samples.

Results

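Ribosome biogenesis begins in the nucleolus, where RNA polymerase I (Pol I) transcribes a long precursor of the ribosomal RNAs. Small nucleolar ribonucleoproteins (snoRNPs) of the box C/D class methylate this pre-rRNA and those of the box H/ACA class convert uridines to pseudouridine. Assembly factors then fold and cut it into the small and the large ribosomal subunit. Growing and dividing epithelial cells depend on this supply, and Myc is a known transcriptional activator of many of its genes. The genes described here are 40 protein-coding genes of pre-rRNA synthesis, pre-rRNA processing, snoRNPs and subunit assembly. They were taken by symbol from a list made for this purpose, and all 40 were among the 15239 genes of the deposited table.

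Their messenger RNA was measured in mouse mammary basal cells expressing a short hairpin RNA, either of scrambled sequence (Scramble control) or directed at Cdk14 (Cdk14-sh). The kinase Cdk14 pairs with cyclin Y at the plasma membrane and is known for its part in phosphorylating a Wnt coreceptor. Each group was 1 library from normal mammary gland. The labels give no strain, age, hairpin sequence or time, and name the material differently: mammary basal cells stand in the sample labels, the human breast cancer line MDA-MB-231 in the design text and retinas in the extraction protocol. Since the table lists mouse Ensembl genes, the description in the sample labels was used. With 1 library per group no difference has a replicate check, so the values are described and no p-value can be had. Values are FPKM, made by the authors, that is, fragments counted for a gene, divided by its exonic length and by the total of the library. A range in parentheses after a fold is its 95% interval, which holds counting error and nothing else, and so sets these libraries side by side rather than the conditions.

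Cdk14 stood at 0.713 FPKM in Cdk14-sh against 2.06 FPKM in Scramble control, 34.5% of the control level (25.9 to 45.7). Reads worked back from the values gave library totals of 10177185 for Cdk14-sh and 10186924 for Scramble control. All 10 basal markers, such as the keratin Krt5 and the transcription factor Trp63, were listed in both libraries, whereas 8 of 10 retina markers, among them rhodopsin, were not in the table. The basal markers stood on both sides of 1, from Cnn1, 3.37-fold lower (3.18 to 3.57), to Trp63, 2.83-fold higher (2.51 to 3.21), and their summed level was 3244 FPKM in Cdk14-sh against 4441 FPKM. Marker levels of other cells of the gland differed as well. The summed level of the 10 listed of 11 luminal markers was 729 FPKM against 1244 FPKM. Of the 6 luminal markers whose mean reached 1 FPKM, 3 were higher and 3 lower. They ran from Krt18, 3.62-fold lower (3.34 to 3.92), to Wfdc18, 2.79-fold higher (2.30 to 3.42). The summed level of the 8 listed of 9 endothelial markers was 19.8 FPKM in Cdk14-sh against 148 FPKM. Of these 8, 7 were lower and Egfl7 had a ratio of 1.11 (0.746 to 1.65). For the 7 listed of 9 immune markers the sum was 388 FPKM against 108 FPKM. Its largest part was Cd74, at 175 FPKM against 49.0 FPKM. Of the 6 immune markers whose mean reached 1 FPKM, 5 were higher, and Coro1a was 2.46-fold lower (1.32 to 4.83). The 5 listed of 8 fibroblast markers summed to 76.7 FPKM against 114 FPKM, though 4 of the 5 were higher. The part of these marker differences in the values below was not tested. In such bulk samples fewer cells of a type and less RNA per cell cannot be told apart.

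As a group, the nucleolar genes stood at about the same level in both libraries. The median log2 ratio of FPKM + 1, Cdk14-sh over Scramble control, was -0.05 over the 40 members and 0.02 over all 12819 measured genes, those whose mean reached 1 FPKM. Of the members, 19 had a log2 ratio above 0 and 21 below, where 51.4% of all measured genes were above 0. A 2-fold or larger difference on this scale was found for 8 members, or 20%, against 27.8% of all measured genes. Among them 6 were higher in Cdk14-sh (14.3% of all measured genes were) and 2 were lower (13.5%). These shares are not far from the background, and no direction of the set follows from them. The members that were higher by that much were Polr1b, Utp3, Utp20, Wdr75, Rrp12 and Bop1, and those that were lower were Polr1e and Tcof1. All 8 had a mean under 20 FPKM.

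**Figure D1:**
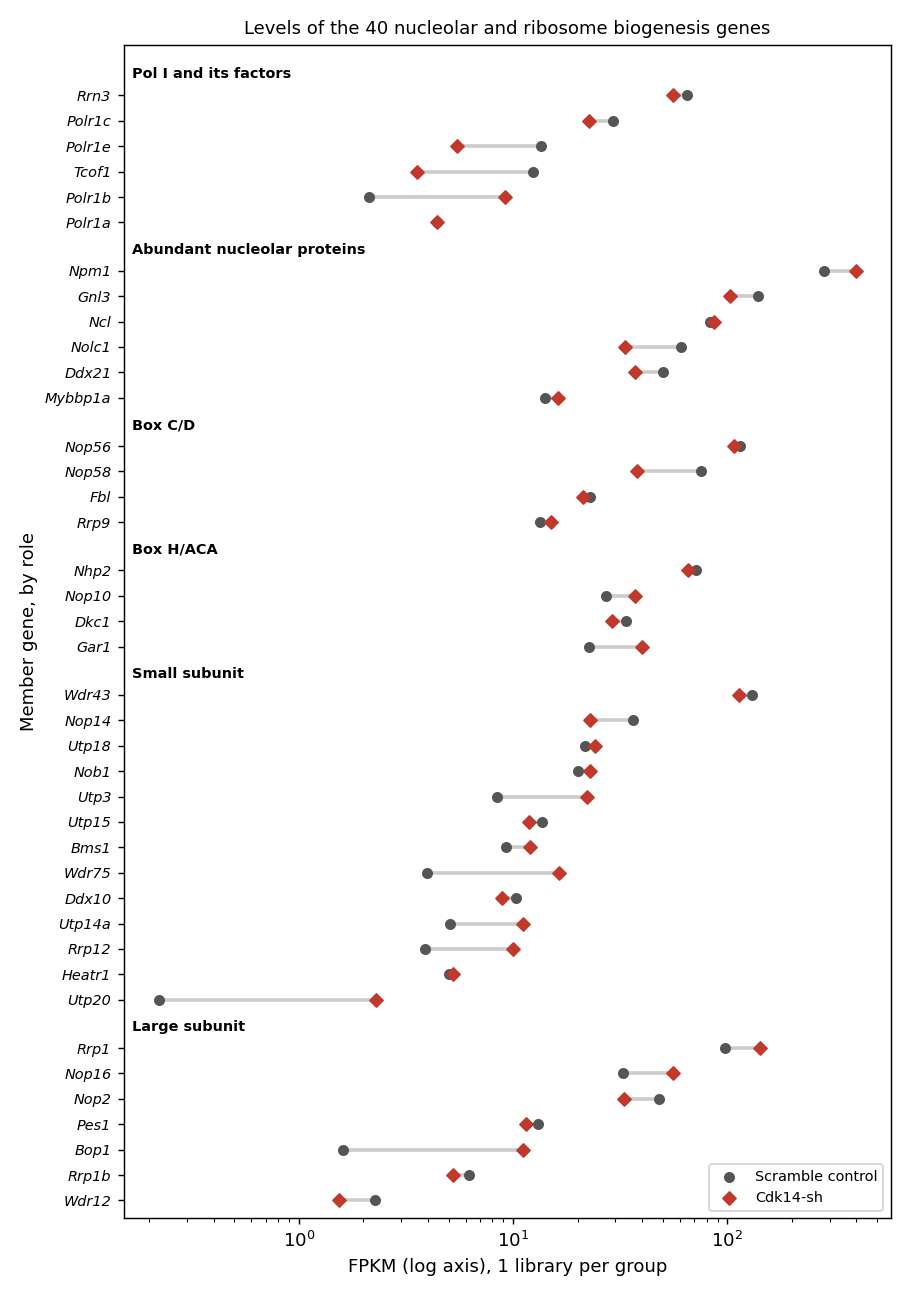
FPKM of each of the 40 members in Scramble control (grey circles) and Cdk14-sh (red diamonds) on a log axis, with genes grouped by role and ordered by mean level. The members span from 0.222 FPKM (Utp20 in Scramble control) to 397 FPKM (Npm1 in Cdk14-sh), and long grey lines mark the genes that differ most.

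The members with most mRNA per exonic length were much the same in both libraries. In Scramble control the leading levels were those of Npm1 at 284 FPKM, Gnl3 at 139 FPKM, Wdr43 at 131 FPKM and Nop56 at 114 FPKM. In Cdk14-sh they were Npm1 at 397 FPKM, Rrp1 at 142 FPKM, Wdr43 at 113 FPKM and Nop56 at 107 FPKM, with Gnl3 next at 103 FPKM. The split by level, chosen after the values were seen, separated the members. None of the 21 members with a mean of at least 20 FPKM was 2-fold different, against 16.2% of all genes at that level. Of the 19 members under 20 FPKM, 8 were, against 31.8% of all genes there. The median log2 ratio was -0.12 in the more abundant members and 0.16 in the others, against 0.11 and -0.01 for all measured genes in the same ranges.

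**Figure D2:**
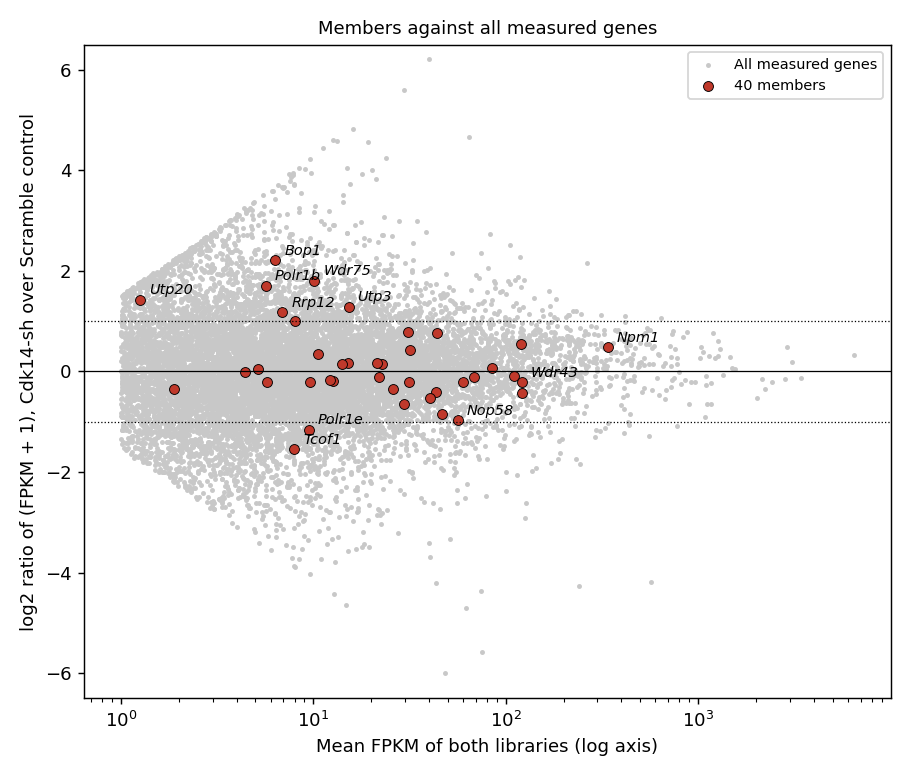
The log2 ratio of FPKM + 1 (Cdk14-sh over Scramble control) against the mean FPKM of both libraries for all 12819 measured genes (grey) and the 40 members (red). The dotted lines mark 2-fold; the 8 members beyond them have a mean under 20 FPKM, and abundant members such as Npm1 and Wdr43 lie between the lines.

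Pol I and its factors held both of the members that were at least 2-fold lower (13.5% of all measured genes were). Tcof1 encodes treacle, the nucleolar scaffold that brings Pol I factors to the ribosomal DNA and is mutated in Treacher Collins syndrome. It stood at 3.56 FPKM in Cdk14-sh against 12.4 FPKM in Scramble control, 3.47-fold lower (2.76 to 4.41). Polr1e (ENSMUSG00000028318, on the plus strand of chromosome 4 from 45018583 to 45036565 in GRCm38), a Pol I subunit used in initiation, stood at 5.50 FPKM against 13.5 FPKM, 2.46-fold lower (1.96 to 3.10). Polr1b went the other way. This gene (ENSMUSG00000027395, plus strand of chromosome 2, 129100995 to 129126594) encodes one of the catalytic subunits, and it stood at 9.21 FPKM against 2.13 FPKM, 4.32-fold higher (3.27 to 5.78). Its catalytic partner Polr1a, the largest subunit, was at 4.41 FPKM against 4.42 FPKM. The level of Polr1b was therefore 0.482 times that of Polr1a in Scramble control and 2.09 times in Cdk14-sh. Levels compared between genes depend on their annotated exons, 5805 bases for Polr1b and 11871 bases for Polr1a. In Cdk14-sh their reads were 544 and 533. Polr1c, a subunit shared with Pol III, was at 22.7 FPKM against 29.3 FPKM, and Rrn3, the initiation factor through which growth signals act on Pol I, was the most abundant of the group at 55.5 FPKM against 64.4 FPKM. The group's median log2 ratio was -0.28, with 5 of 6 members below 0, where 51.4% of all measured genes were above 0.

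The abundant nucleolar proteins were all within 2-fold, as were 72.2% of all measured genes and 83.8% of those with a mean of at least 20 FPKM. Npm1 encodes nucleophosmin, the main protein of the outer nucleolar layer and a chaperone of assembling ribosomes. It stood at 397 FPKM in Cdk14-sh against 284 FPKM in Scramble control, 1.40-fold higher (1.34 to 1.46), from 10755 and 7702 reads. Nolc1, a chaperone of snoRNPs, had the lowest ratio of the group, at 33.2 FPKM against 60.6 FPKM, 1.82-fold lower (1.66 to 2.01). Nucleolin (Ncl), which binds pre-rRNA and ribosomal DNA chromatin, was at 87.0 FPKM against 82.8 FPKM, a ratio of 1.05 (1.01 to 1.09). The intervals of Npm1, Nolc1 and Ncl are narrow because of their depth. The small ratio of Ncl lay only just outside counting error, and did so at the deposited scaling. No interval is given for other scalings, which lowered the log2 ratio of Ncl from 0.07 to between 0.02 and 0.05. Equal levels lay within the interval of Mybbp1a (0.996 to 1.30). The spread between cultures or animals is not known. Ddx21, an RNA helicase of Pol I transcription and processing, Gnl3 (nucleostemin, a GTPase of proliferating cells) and Mybbp1a, a repressor of Pol I, had log2 ratios from -0.43 to 0.18.

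The box C/D proteins had a median log2 ratio of -0.11. Nop56 and Nop58 are the paired scaffolds of the box C/D particle and are related in sequence. Nop58 (ENSMUSG00000026020, plus strand of chromosome 1, 59684971 to 59719044) was at 38.0 FPKM in Cdk14-sh against 75.1 FPKM, 1.98-fold lower (1.88 to 2.09), just short of the 2-fold limit, which it passed under 1 of 4 other scalings with a log2 ratio of -1.02. Nop56 was at 107 FPKM against 114 FPKM, a 1.07-fold difference (1.01 to 1.14). The level of Nop56 was accordingly 1.52 times that of Nop58 in Scramble control and 2.81 times in Cdk14-sh. These levels are divided by annotated exons of 4099 bases for Nop56 and 10758 bases for Nop58. In Scramble control Nop58 had more reads, 8231 against about 4780. Fibrillarin (Fbl), the methyltransferase of the particle, was at 21.1 FPKM against 22.9 FPKM, and Rrp9, which binds the U3 snoRNA, had the highest ratio of the group, at 15.0 FPKM against 13.4 FPKM. The intervals of both genes held a ratio of 1.

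The H/ACA proteins were also within 2-fold, with a median log2 ratio of 0.16. Gar1 had the highest ratio, at 39.7 FPKM in Cdk14-sh against 22.6 FPKM in Scramble control, 1.76-fold higher (1.47 to 2.11). Nop10, the smallest protein of the particle, was 1.36-fold higher (1.10 to 1.68), at 36.9 FPKM against 27.2 FPKM. Dkc1, the pseudouridine synthase dyskerin, which also belongs to telomerase, had the lowest ratio, at 29.0 FPKM against 33.7 FPKM, 1.16-fold lower (1.04 to 1.30). Nhp2, the most abundant, was at 65.7 FPKM against 71.2 FPKM, and its interval held a ratio of 1. In FPKM, Gar1 thus stood below Dkc1 in Scramble control and above it in Cdk14-sh, with annotated exons of 1714 and 4121 bases. In reads Gar1 was below Dkc1 in both libraries, at 394 against 1413 in Scramble control and 693 against 1215.5 in Cdk14-sh.

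**Figure D3:**
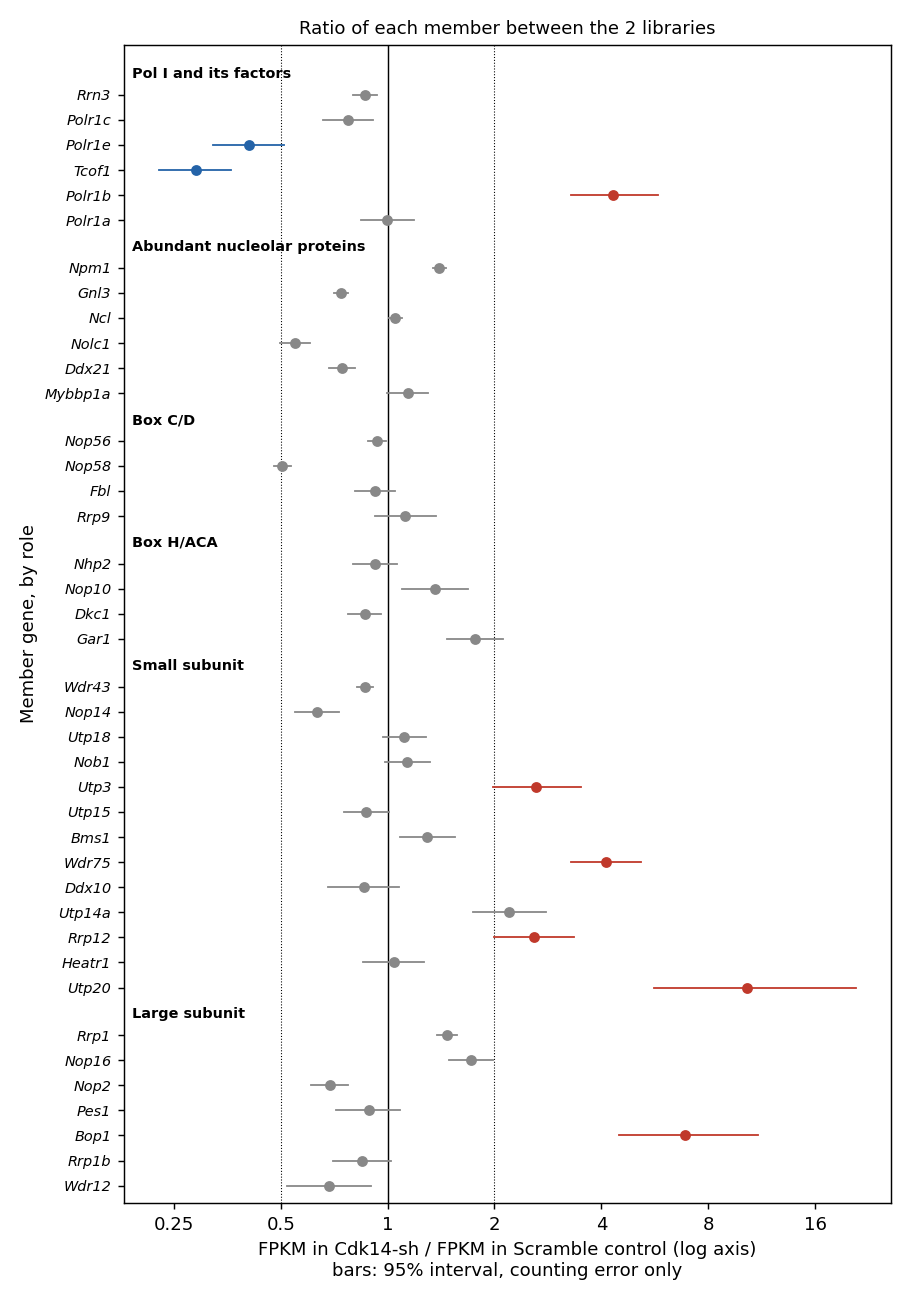
Ratio of FPKM in Cdk14-sh to FPKM in Scramble control for each member on a log axis, by role, with 95% intervals for counting error only. Red points are at least 2-fold higher and blue points at least 2-fold lower on the log2 scale of FPKM + 1; dotted lines mark ratios of 0.5 and 2, and the widest interval is that of Utp20 (5.63 to 20.8).

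Factors of the small subunit held 4 of the 6 members that were at least 2-fold higher, and none that was 2-fold lower. They are the largest role group, 13 of the 40 members. Of all measured genes, 14.3% were higher and 13.5% lower by that much. Among 41 other measured genes of small subunit assembly, 4 were higher and 2 lower by that much. The group's median log2 ratio was 0.18, with 9 of 13 above 0, where 51.4% of all measured genes were. Wdr75 (ENSMUSG00000025995, plus strand of chromosome 1, 45795166 to 45823619) belongs to the subcomplex of the small subunit processome that couples Pol I transcription to processing. It stood at 16.3 FPKM in Cdk14-sh against 3.97 FPKM, 4.11-fold higher (3.29 to 5.17), from 813 and 198 reads. The other members of this subcomplex did not share that difference in these libraries. Wdr43, the most abundant factor of the group, was at 113 FPKM against 131 FPKM. Utp15 was at 11.9 FPKM against 13.6 FPKM, and Heatr1 at 5.25 FPKM against 5.05 FPKM, both with intervals that held a ratio of 1. The level of Wdr43 was 32.9 times that of Wdr75 in Scramble control and 6.92 times in Cdk14-sh.

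Utp20, a very large scaffold protein of the processome, had the lowest mean level of the members, though Wdr12 was lower in Cdk14-sh. It stood at 2.29 FPKM in Cdk14-sh against 0.222 FPKM, a ratio of 10.3 (5.63 to 20.8), which rests on about 23.1 reads in Scramble control. With the pseudocount of 1 FPKM its log2 ratio was 1.43. Utp3, which is known in yeast as the processome protein Sas10, was at 22.1 FPKM against 8.44 FPKM, 2.62-fold higher (1.98 to 3.50). Rrp12, which takes part in the export of pre-ribosomes, was at 9.96 FPKM against 3.86 FPKM, 2.58-fold higher, with 3.35 as the upper end of its interval and a log2 ratio of 1.17. Next to the limit came Utp14a, known in yeast to activate a processome helicase. Its FPKM ratio was 2.20 (1.74 to 2.79), at 11.1 FPKM against 5.05 FPKM, but its log2 ratio of FPKM + 1 was just short of 1. Opposite-strand genes overlap 11.5% of its exonic bases. Nop14 had the lowest ratio of the group, at 22.9 FPKM against 36.3 FPKM, 1.58-fold lower (1.37 to 1.83). The remaining factors were Utp18, the GTPase Bms1, the endonuclease Nob1, which makes the last cut of the small subunit's rRNA, and the helicase Ddx10. Their log2 ratios ran from -0.20 to 0.34.

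Among factors of the large subunit, 1 of 7 was past the limit, against 27.8% of all measured genes. The group's median log2 ratio was -0.16, which turned to 0.19 when genes with a mean under 5 FPKM were left out. Bop1, Pes1 and Wdr12 form the PeBoW complex, which is needed to process the rRNA of the large subunit. Bop1 (ENSMUSG00000022557, minus strand of chromosome 15, 76452989 to 76477277) had the highest log2 ratio of all members, 2.21. It stood at 11.1 FPKM in Cdk14-sh against 1.61 FPKM in Scramble control, 6.90-fold higher (4.48 to 11.0). Its partners did not share this difference in the libraries compared. Pes1 was at 11.5 FPKM against 13.0 FPKM, with an interval that held a ratio of 1. Wdr12 was at 1.55 FPKM against 2.26 FPKM, 1.46-fold lower (1.12 to 1.92); its annotated exons come to 11955 bases, the longest of the members, by which its reads are divided. Pes1 stood at 8.11 times the level of Bop1 in Scramble control and at 1.04 times in Cdk14-sh.

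The remaining large subunit factors were within 2-fold, as were 72.2% of all measured genes. Nop16 was at 55.7 FPKM against 32.5 FPKM, 1.71-fold higher (1.49 to 1.98). Rrp1, the most abundant factor, was at 142 FPKM against 96.9 FPKM, 1.47-fold higher (1.38 to 1.56). Its paralogue Rrp1b was at 5.27 FPKM against 6.22 FPKM, with an interval that held a ratio of 1. The rRNA cytosine methyltransferase Nop2 had the lowest ratio of the group, at 32.9 FPKM against 48.0 FPKM, 1.46-fold lower (1.29 to 1.64). Members of this group therefore lay on both sides of 1, as in every other role group.

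Counting error separated more members than the 2-fold limit did. At the deposited scaling, the interval of the ratio left out 1 for 28 of 40 members, where it did for 69% of the 12785 measured genes with a known length. Of these 28 members, 14 were higher and 14 lower in Cdk14-sh, and 20 were within 2-fold. The count takes 2 reads as 1 fragment, a choice that rests on the values alone. With each read taken as 1 count, 33 members had an interval that left out 1, and no share over all genes is given for that setting.

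Other genes of the pathway, from lists drawn up alongside the members, had a similar spread. Of 128 measured genes of Pol I initiation, subunit assembly, snoRNP assembly and the RNA exosome, 14 were past the limit on the higher side and 7 on the lower side, together 16.4%. Over all measured genes that share was 27.8%. The median log2 ratio of these 128 genes was 0.09, and 71 of them were above 0. Some belong to the same complexes as the members above. Cirh1a (Utp4), of the same subcomplex as Wdr75 and Wdr43, was at 21.4 FPKM against 56.9 FPKM, 2.66-fold lower (2.36 to 3.01). Pwp2, which sits in a processome subcomplex with Utp18, was at 1.93 FPKM against 12.8 FPKM, 6.65-fold lower (4.72 to 9.62). Among small subunit assembly genes whose mean reached 5 FPKM, the highest were the rRNA methyltransferase Emg1, 2.37-fold higher (2.04 to 2.75), and Dcaf13, 2.15-fold higher (1.94 to 2.38). Below that level, Utp23 and Dhx37 had larger ratios, 8.29 (4.75 to 15.6) and 9.88 (4.78 to 23.7), from 28 and 16 reads in Scramble control. Genes of one subcomplex thus stood on opposite sides of 1 here too.

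Pol I initiation genes included Taf1a, a subunit of the promoter selectivity factor, at 4.08 FPKM against 12.1 FPKM, 2.97-fold lower (2.14 to 4.17). Ubtf, the activator that binds along the ribosomal DNA, was 1.79-fold lower (1.51 to 2.13), at 6.27 FPKM against 11.2 FPKM. The Pol I subunit gene Cd3eap (Polr1g) was 1.28-fold higher (1.04 to 1.58) and Taf1d 1.31-fold higher (1.18 to 1.46). In large subunit assembly, Tex10 was 2.74-fold higher (2.31 to 3.27) and Noc2l 2.84-fold higher (2.15 to 3.79), while Senp3, a SUMO protease of the nucleolus, was 2.31-fold lower (2.01 to 2.66) and Rbm28 2.16-fold lower (1.78 to 2.63). Ruvbl2, an ATPase that helps to assemble snoRNPs, was 2.81-fold higher (2.26 to 3.52), and Pih1d1, of the same chaperone pathway, was at 11.7 FPKM against 10.1 FPKM. The box C/D core gene Nhp2l1 (Snu13) was at 78.4 FPKM against 87.9 FPKM, and Nufip1 at 9.54 FPKM against 13.5 FPKM. Of the exosome, which trims the ends of pre-rRNA, the nuclease Dis3 was 3.16-fold lower (2.66 to 3.76) and the helicase Skiv2l2 (Mtrex) 2.02-fold lower (1.78 to 2.31), whereas Exosc9 was 2.54-fold higher (1.96 to 3.32) and Exosc5 2.18-fold higher (1.73 to 2.78).

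**Figure D4:**
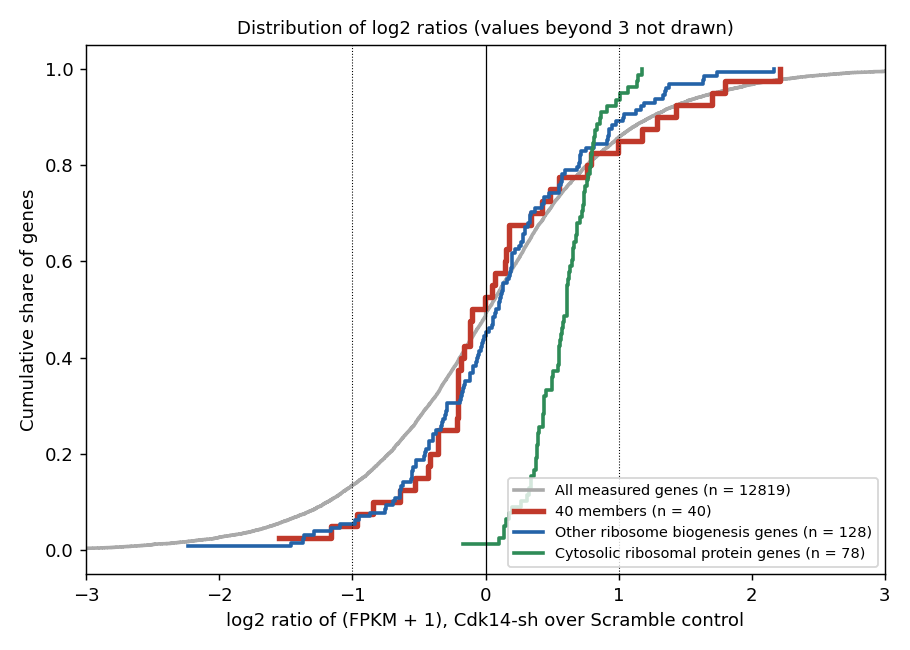
Cumulative share of genes by log2 ratio of FPKM + 1 (Cdk14-sh over Scramble control) for the 40 members, 128 other ribosome biogenesis genes, 78 cytosolic ribosomal protein genes and all 12819 measured genes. The curves of the members and of the other biogenesis genes cross 0 near their middle, with medians of -0.05 and 0.09, while the ribosomal protein curve is shifted to a median of 0.61.

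The proteins that these factors assemble into ribosomes had another distribution. The log2 ratio was above 0 for 77 of 78 measured genes of cytosolic ribosomal proteins, and its median was 0.61 with an SD across genes of 0.25. Across the 40 members the SD was 0.81 around a median of -0.05, against 1.02 around 0.02 for all measured genes. The difference between the lists was not tested.

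Some members share a sequence feature that the choice of genes did not use. The E-box CACGTG, which reads the same on both strands and is bound by Myc with its partner Max among other factors, was searched in windows from 250 bases before to 50 bases after each annotated start (RefSeq, GRCm38.p6). A window was found for 35 of the 40 members, and 7 of these (20%) held the letters: Nop2, Utp20, Pes1, Mybbp1a, Utp18, Rrn3 and Wdr43. The share was 8.09% over all 27025 genes with a window, 12.1% over the 8118 measured genes and 19.4% over 103 of the other biogenesis genes. A match is a description of these letters and shows no binding. Of these 7 genes, Utp20 alone was past the 2-fold limit, which 27.8% of all measured genes passed. Bop1, Rrp12 and Tcof1, also past the limit, were among the 5 members with no window. The ratio of Utp20, 10.3, rests on about 23.1 reads in Scramble control. Those of the other genes with the motif ran from 0.686 (Nop2) to 1.14 (Mybbp1a). Sequences around the motif, with the E-box in capitals, are shown for Utp20, Nop2, Wdr43 and Utp18, chosen after their values were seen. Pes1, Mybbp1a and Rrn3 are not shown, though in Pes1 the motif lies nearer the start than in these 4.
Utp20 (chr10:88826765-88826789, minus strand): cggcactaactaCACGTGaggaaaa
Nop2 (chr6:125131811-125131840, plus strand): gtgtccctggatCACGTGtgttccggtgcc
Wdr43 (chr17:71616220-71616249, plus strand): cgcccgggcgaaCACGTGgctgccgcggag
Utp18 (chr11:93885769-93885798, minus strand): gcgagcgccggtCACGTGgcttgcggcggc
The motif begins 60 bases before the start in Nop2 and 20 bases before it in Utp18, and lies past the start in Utp20 and Wdr43. Nop2 was 1.46-fold lower, Wdr43 was 1.16-fold lower (1.10 to 1.22) and Utp18 was at 24.0 FPKM against 21.6 FPKM, so genes that share the motif stood on both sides of 1.

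Another shared feature is that 6 members carry snoRNA genes within their bounds on the same strand: Ncl, Gnl3, Nop56, Nop58, Dkc1 and Wdr43, with 19 annotated snoRNA genes in all. All 6 were within 2-fold, and their median log2 ratio was -0.21, with 5 below 0, where 51.4% of all measured genes were above 0. The 34 other members had a median of 0.10. They held all 8 members past the limit, or 23.5% of the 34, against 27.8% of all measured genes. All 6 hosts had a mean of at least 20 FPKM, the range in which no member was past the limit. Of all genes in that range, 16.2% were past the limit. The 15 other members in that range had a median log2 ratio of -0.12, with 8 below 0. The difference between hosts and other members was not tested.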

How the data were processed

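The authors deposited 1 table of FPKM values with a column for each library, and every gene in it is above 0 in both. Per the submitters' processing notes, Bowtie 0.12.2, featureCounts and Subread 1.5.1 were used; those notes also name 2 builds, mm8 and GRCm38, and do not say what each was for. Not given in the sources used here is the treatment of strand, multiply mapped reads and overlapping genes, so values of genes with processed copies, such as Npm1, are uncertain. Each column name was assigned to the only sample title it fits.

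Measured genes are those whose mean reached 1 FPKM, and the row of highest mean was kept for a shared symbol. The log2 ratio used a pseudocount of 1 FPKM, which understates differences of low genes; folds in the text are FPKM ratios. Reads were recovered from FPKM and exonic lengths of GENCODE M21 (GRCm38). The product was a multiple of 0.5 reads (tolerance 0.01) for 79.2% of 15195 genes with a length and for 27 of 40 members; reads and intervals of the other 13, among them Utp20, Bop1 and Rrp12, are approximate. Intervals are exact Clopper-Pearson with 2 reads as 1 fragment and cover counting error only.

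The members and lists were chosen with earlier results of these data known. All members are named, with values for those past 2-fold and for the highest, lowest and most abundant of each role group; others with values were chosen after these were seen. Of related lists, the 2 highest and 2 lowest genes among those whose mean reached 5 FPKM are named. The calculation was tested on simulated data. Python 3.11.15, pandas 2.3.3 and SciPy 1.17.1 were used.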

Additional observations from a re-analysis of the deposited data

How the results depend on the processing

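No paired analysis was possible because each group holds 1 library. Over pseudocounts of 0.1 and 5 FPKM, a minimum mean of 0 or 5 FPKM, 4 other scalings of the Cdk14-sh values and summed rows of shared symbols, the median log2 ratio of the members stayed between -0.10 and -0.05; the mean in its place was 0.14. No member changed sign under the 4 scalings, and all 8 members past 2-fold stayed past it; with equal sums of protein-coding FPKM without the 100 highest genes, Nop58 joined them and 3 members were lower. With a pseudocount of 5 FPKM, the 2-fold limit was passed by 3 members on the higher side and 1 on the lower, against 5.28% and 4.77% of all measured genes. At a limit of 1.5-fold, 9 members were higher and 5 lower, against 25.3% and 24.5% of all measured genes; at 4-fold, 1 was higher and 0 lower, against 3.27% and 2.69%. Ratios without a pseudocount, chosen after seeing the data, gave 7 higher, Utp14a being added, and 2 lower, against 18.4% and 17.4%. A single member's value was held against its counting interval on the log2 scale of FPKM + 1, and a list's median against the medians of its genes' bounds. By that measure 12 other values moved and 496 did not. Of the 12, 11 were single members under another pseudocount, which changes the scale itself, and none changed sign. The other was the median of the large subunit group, which turned from -0.16 to 0.19 at a minimum mean of 5 FPKM. Depth limits the low members most: Utp20 and Bop1 had about 23.1 and 48.4 reads in Scramble control.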

Other observations

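Regulators of ribosome synthesis were mixed as well. Of 10 measured genes of the Myc network, 3 passed the 2-fold limit, all on the higher side in Cdk14-sh, where 14.3% of all measured genes were; the list's median log2 ratio was 0.06. Myc itself was abundant in both libraries, at 273 FPKM in Cdk14-sh against 316 FPKM, 1.16-fold lower (1.11 to 1.21). Its partner Max was 2.23-fold higher (1.93 to 2.58), at 32.6 FPKM against 14.6 FPKM, the Max-like factor Mlx was 2.41-fold higher (1.63 to 3.64), and the antagonist Mxd1 was 1.28-fold lower (1.11 to 1.48). Another antagonist, Mxi1, named after its values were seen, was the third gene past the limit, 4.24-fold higher (2.85 to 6.49), at 3.78 FPKM against 0.891 FPKM. In the mTOR axis, which couples nutrients to ribosome synthesis, the median was 0.15 over 9 genes. The inhibitor Tsc2 was 2.72-fold lower (2.36 to 3.13), at 5.60 FPKM against 15.2 FPKM, and the translation repressor Eif4ebp1 was at 41.9 FPKM against 55.8 FPKM, while Akt1s1 was 1.70-fold higher (1.34 to 2.17) and Larp1 was at 8.91 FPKM against 7.65 FPKM.

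Faults in ribosome assembly are known to stabilise p53 through free ribosomal proteins that bind Mdm2. Of 8 measured genes of this axis, 2 were at least 2-fold higher and none at least 2-fold lower (14.3% and 13.5% of all measured genes were), with a median log2 ratio of 0.52. Sesn2, a stress-response gene that p53 and other factors induce, was at 17.9 FPKM against 2.54 FPKM, 7.05-fold higher (5.15 to 9.86), and the p53 target Ccng1 was 2.21-fold higher (1.93 to 2.53). Mdm2, itself a p53 target, was 1.78-fold lower (1.64 to 1.92), at 38.9 FPKM against 69.1 FPKM, and Trp53 was at 53.3 FPKM against 56.6 FPKM. The p53 target Cdkn1a, named after its values were seen, was at 240 FPKM against 243 FPKM. The list holds the ribosomal protein genes Rpl5 and Rpl11, so it is not independent of the ribosomal protein list. The table also lists snoRNA genes that lie within members. Snora75, within Ncl, was at 1.48 FPKM against 16.6 FPKM from 2 and 22.5 reads, and Snord57, within Nop56, was at 13.0 FPKM against 43.6 FPKM from 9.5 and 32 reads. Gm24451, also within Nop56, was at 19.2 FPKM against 7.26 FPKM from 26 and 9.8 reads. Snord19, within Gnl3, was at 5.82 FPKM against 5.81 FPKM from 4.5 reads in each. Of the 9 listed, 7 were lower and these 2 were not, where 51.4% of all measured genes had a log2 ratio above 0. The 4 with values above rest on few reads and were chosen after their values were seen. Among the 9, most reads fell on Gm23187, within Nop56, which was lower, at 93.5 reads in Cdk14-sh against 140. With 1 library per group, no direction of these snoRNA genes follows.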
